A study of Mus musculus with 9 samples.

Results

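The genes described here are 8 named genes of hepatic glucose metabolism, taken as one set by name: Pklr, G6pc, Slc37a4, Pck1, Fbp1, Slc2a2, Pfkfb1 and Gys2. A gene was measured where the array held a probe set annotated to its symbol alone, and a gene with several was represented by the one with the highest mean signal over the 9 arrays. Under that rule 7 of the 8 genes had a probe set, all 7 passed the filter on dim signals, and they stand among 18193 genes annotated in this way, of which 12466 passed the filter. Pfkfb1 was not analysed here.

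The livers came from 9 female Crlj:CD1(ICR) mice, an outbred stock, bought at 9 weeks of age and kept for 1 week before the feeding began. For 2 weeks 3 mice ate a diet with 5000 ppm permethrin, 3 ate a diet with 5000 ppm clofibrate and 3 ate the control diet with 0 ppm of either chemical. Permethrin is a pyrethroid insecticide, and clofibrate is a fibrate, a drug class that lowers blood lipids by activating the nuclear receptor PPAR alpha. Liver RNA of each mouse was hybridised to its own Affymetrix mouse array. For the treated samples the description names rats, but organism, strain and source all give mouse. The median signal of an array lay between 13.4 and 17.9, and the brightest probe set reached 12792 to 13409 on the permethrin arrays, 10714 to 12058 on the clofibrate arrays and 14387 to 14899 on the control arrays.

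The liver takes up glucose after a meal and releases it in fasting. In glycolysis glucose is broken down to pyruvate, and pyruvate kinase, encoded in hepatocytes by Pklr, catalyses the last step. Gluconeogenesis runs the other way through enzymes of its own: phosphoenolpyruvate carboxykinase (Pck1), fructose bisphosphatase (Fbp1) and glucose-6-phosphatase (G6pc), which works in the endoplasmic reticulum on substrate brought in by the transporter Slc37a4. Slc2a2, also called GLUT2, carries glucose across the hepatocyte membrane, Gys2 is the glycogen synthase of liver, and Pfkfb1 sets the level of fructose 2,6-bisphosphate, the signal that favours glycolysis over gluconeogenesis.

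Pklr was lower than control in both treated groups, and Gys2 was higher in both. Slc37a4 fell in both groups as well, and G6pc, Slc2a2 and Fbp1 fell in clofibrate livers, whereas Pck1 passed the test in neither group. In permethrin livers 1 of the 7 genes rose and 2 fell (limma, adjusted p below 0.05). Of all tested genes 2.13% passed there, with 1.28% of all tested genes higher and 0.85% lower. In clofibrate livers 1 gene rose and 5 fell, where 7.03% of all tested genes passed, with 3.22% of all tested genes higher and 3.8% lower. The genes were chosen with earlier results of these data known, so their counts are not independent of that choice. All 3 arrays of a treated group lay above those of control for 1 gene and below them for 3 in permethrin livers (9.53% and 13.2% of all tested genes), and for 1 and 5 in clofibrate livers (11.6% and 15.6%). The median log2 change of the 7 genes was -0.52 in permethrin livers and -0.81 in clofibrate livers, and that of all tested genes was -0.04 in both. Both comparisons use the same 3 control arrays, so they are not independent of each other. Log2 changes here are differences of group means of log2(signal + 3.35), given with the standard error, and ± after a signal is the standard deviation over the 3 mice of a group.

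**Figure D1:**
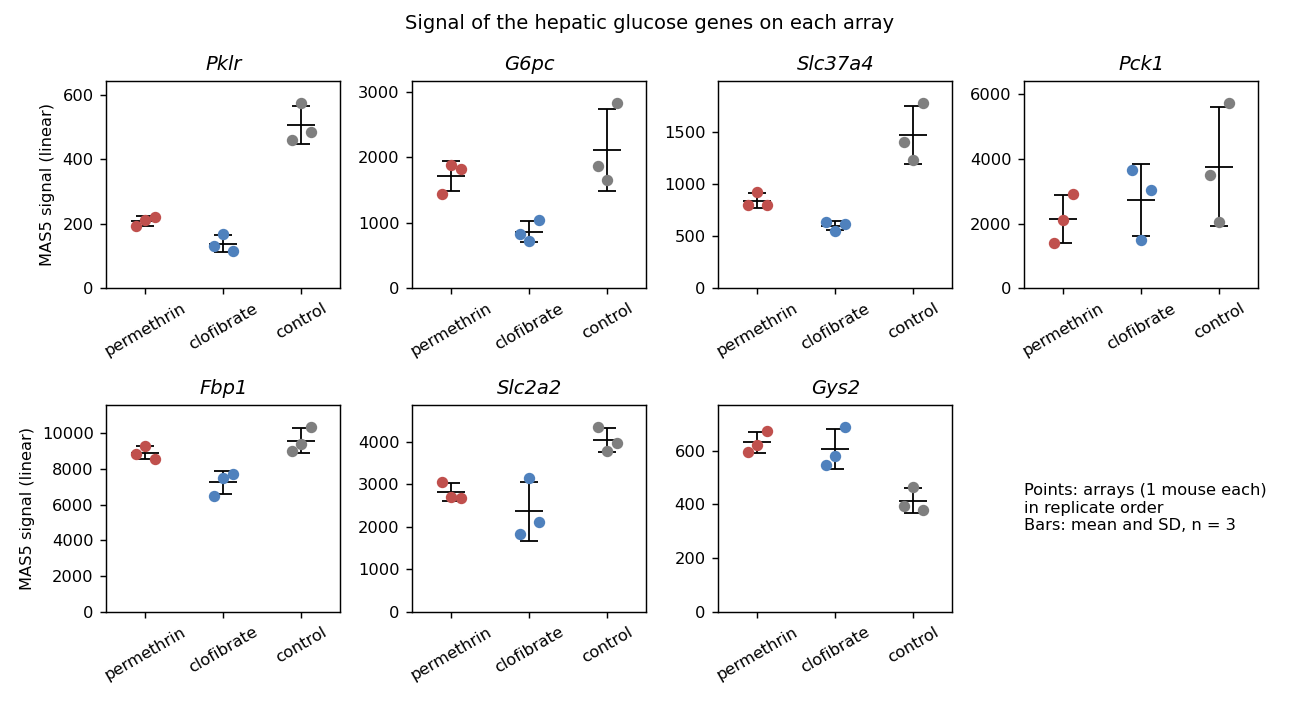
Signal of each of the 7 genes (vertical axis, linear MAS5 signal) on the 3 arrays of the permethrin, clofibrate and control groups, with 1 point per mouse and bars for the mean and standard deviation (n = 3). All treated arrays lie below all control arrays for Pklr, Slc37a4 and Slc2a2 and above them for Gys2, whereas the groups overlap for Pck1.

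The promoter sequences of the genes that changed are shown because 5 of the 6 moved in 1 direction. RefSeq windows from 250 bases before to 50 bases after the transcription start (build GRCm38.p6) were held for 5 of the 6 genes, with 8 windows in all: 2 for Pklr, 3 for Slc37a4 and 1 each for G6pc, Fbp1 and Slc2a2. Both strands were searched for 7 motifs. These were the E-box CACGTG, the cAMP response element TGACGTCA, the forkhead motif TGTTTAC, the nuclear receptor half-site AGGTCA, the TATA box TATAAA and the HNF1 palindrome (GTTAAT and its reverse complement around 1 base). The last was CACG followed, after 9 bases of any kind, by the letters CGTG, the spacing of a carbohydrate response element. The spaced pair of CACG and CGTG is in 0.28% of all 32851 windows of the table and was found once here, from base -170 to base -154 of start 2 of Pklr. TATAAA is in 13.6% of all windows and in 3 of the 8, and AGGTCA is in 16.3% of all windows and in 4 of the 8. The remaining motifs were in none of the 8 windows, and they are in 7.15% (CACGTG), 1.79% (TGACGTCA), 3.65% (TGTTTAC) and 0.00913% (HNF1 palindrome) of all windows. These matches describe letters, not bound sites. The 4 windows below run 5′ to 3′ on the plus strand, with the matches in capitals. They lie at chr3:89136373-89136672 (start 2 of Pklr), chr11:101367466-101367765 (G6pc), chr9:44398104-44398403 (start 3 of Slc37a4) and chr3:28697653-28697952 (Slc2a2).
Pklr, start 2: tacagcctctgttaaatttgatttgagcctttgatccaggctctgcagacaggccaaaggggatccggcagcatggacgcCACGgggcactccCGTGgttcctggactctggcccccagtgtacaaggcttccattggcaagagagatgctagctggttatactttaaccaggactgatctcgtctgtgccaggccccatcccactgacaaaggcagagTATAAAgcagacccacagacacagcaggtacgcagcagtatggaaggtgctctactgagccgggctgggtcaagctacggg
G6pc: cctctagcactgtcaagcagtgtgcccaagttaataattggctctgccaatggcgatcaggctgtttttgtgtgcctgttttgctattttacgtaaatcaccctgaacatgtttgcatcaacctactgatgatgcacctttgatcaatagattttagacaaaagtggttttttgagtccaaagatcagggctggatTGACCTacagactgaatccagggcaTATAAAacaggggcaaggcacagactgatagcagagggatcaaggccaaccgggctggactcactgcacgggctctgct
Slc37a4, start 3: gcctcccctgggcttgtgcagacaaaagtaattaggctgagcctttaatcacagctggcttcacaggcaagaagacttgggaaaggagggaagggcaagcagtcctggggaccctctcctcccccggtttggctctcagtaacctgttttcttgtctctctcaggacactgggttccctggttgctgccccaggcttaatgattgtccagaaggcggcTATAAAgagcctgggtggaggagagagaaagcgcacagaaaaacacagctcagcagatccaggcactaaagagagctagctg
Slc2a2: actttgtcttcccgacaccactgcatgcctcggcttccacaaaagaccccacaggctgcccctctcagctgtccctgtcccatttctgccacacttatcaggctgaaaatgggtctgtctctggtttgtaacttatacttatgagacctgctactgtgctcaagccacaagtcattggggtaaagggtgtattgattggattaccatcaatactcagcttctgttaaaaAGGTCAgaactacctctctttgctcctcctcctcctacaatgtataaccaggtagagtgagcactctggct
In the Pklr window the capitals mark CACG, CGTG and TATAAA. The G6pc capitals are TGACCT, which is AGGTCA read on the other strand at bases -54 to -49, and TATAAA. Slc37a4 has TATAAA at bases -32 to -27 of start 3, and AGGTCA at bases -127 to -122 of start 1. Slc2a2 has AGGTCA at bases -21 to -16. The Fbp1 window held none of the 7 motifs.

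Pklr, on chromosome 3 (89136122 to 89146815, RefSeq gene span in GRCm38.p6, the build of all spans given), showed the largest change of the 7 genes in both comparisons with control. Its signal was 193, 210.4 and 222 in permethrin livers and 130.4, 168 and 117 in clofibrate livers, against 460.5, 574 and 484 in control livers. Every treated mouse lay below every control mouse. The means were 208 ± 14.9 in permethrin livers and 506 ± 60.0 in control livers, a log2 change of -1.26 ± 0.15 (95% interval -1.60 to -0.92), which is 2.40-fold lower (limma adjusted p = 0.00206). In clofibrate livers the mean was 138 ± 26.7, a log2 change of -1.85 ± 0.15 (95% interval -2.19 to -1.52) and 3.62-fold lower than control (limma adjusted p = 7.49e-05). Pklr has 2 further probe sets, and over the 9 arrays the log2 signals of the 3 probe sets correlated at r = 0.883 to 0.956. The second gave log2 changes of -1.47 in permethrin livers (limma adjusted p = 0.0121) and -1.41 in clofibrate livers (adjusted p = 0.0059), and the third gave -1.12 (adjusted p = 0.062) and -1.20 (adjusted p = 0.0196). Red cells use the same gene, and their part in the fall of Pklr was not tested. Of the 2 erythroid markers tested, 0 passed in limma in either comparison with control, and 0 had an unadjusted p below 0.05. The 95% interval of Alas2 was -0.92 to 1.19 in permethrin livers and -0.56 to 1.55 in clofibrate livers. These intervals include falls as well as rises, so the markers cannot show that red-cell content was unchanged. The summed signal of the 3 erythroid markers annotated was 138 to 361 in permethrin livers, 204 to 339 in clofibrate livers and 112 to 346 in control livers.

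G6pc and Slc37a4 together release free glucose from glucose-6-phosphate. G6pc, on chromosome 11 (101367716 to 101377903), had signals of 1446, 1880.4 and 1822 in permethrin livers and 827, 729 and 1038 in clofibrate livers, against 1867, 1659 and 2830.3 in control livers. The clofibrate arrays lay below all others, whereas the permethrin and control arrays overlapped. G6pc averaged 865 ± 158 in clofibrate livers and 2119 ± 625 in control livers, a log2 change of -1.27 ± 0.20 (95% interval -1.70 to -0.83) and 2.40-fold lower (limma adjusted p = 0.00348). In permethrin livers it averaged 1716 ± 236, a log2 change of -0.27 ± 0.20 that did not pass (95% interval -0.71 to 0.16, limma adjusted p = 0.595).

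Slc37a4, on chromosome 9 (44396946 to 44402966), had signals of 796, 923 and 802 in permethrin livers and 634, 548 and 613 in clofibrate livers, against 1408, 1226 and 1775 in control livers. No treated array overlapped a control array, and the clofibrate arrays lay below the permethrin arrays. The mean of 599 ± 44.7 in clofibrate livers, against 1469.5 ± 279.6 in control livers, was 2.42-fold lower (log2 change -1.28 ± 0.14, limma adjusted p = 0.000413). In permethrin livers the mean was 840.4 ± 71.8, which is 1.73-fold lower than control (log2 change -0.79 ± 0.14, limma adjusted p = 0.0169). That call in permethrin livers was lost without control replicate 1 (adjusted p = 0.0703), control replicate 3 (0.0633), permethrin replicate 1 (0.0589) or permethrin replicate 3 (0.076), with log2 changes from -0.65 to -0.81. It was lost too with each array centred on its median (limma adjusted p = 0.102), with scaling to the hybridization controls (0.0845) and with no intensity trend (0.0963).

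Pck1, the enzyme that turns oxaloacetate into phosphoenolpyruvate, varied more among mice of one group than any other of the 7 genes. On chromosome 2 (173153073 to 173159274), it had signals of 1401, 2101 and 2908 in permethrin livers and 3644, 1490.3 and 3040.2 in clofibrate livers, against 3509, 2048 and 5718 in control livers. The highest control array was 2.79 times the lowest, and the 3 groups overlapped. The log2 change was -0.75 ± 0.40 in permethrin livers (95% interval -1.63 to 0.12, limma adjusted p = 0.446) and -0.44 ± 0.40 in clofibrate livers (95% interval -1.31 to 0.44, adjusted p = 0.622). Both intervals include no change as well as a fall as large as that of G6pc in clofibrate livers. With 3 mice a group the values do not tell these apart. A second Pck1 probe set followed the first (r = 0.949 over the 9 arrays) and did not pass either, with limma adjusted p = 0.591 in permethrin livers and 0.915 in clofibrate livers. The remaining, dim probe set did not follow it (r = 0.056) and did not pass, with limma adjusted p = 0.303 in permethrin livers and 0.327 in clofibrate livers.

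Fbp1, on chromosome 13 (62864753 to 62888298), had signals of 8809, 9273 and 8555 in permethrin livers and 6484, 7502 and 7719.6 in clofibrate livers, against 8983, 9399 and 10333 in control livers. The clofibrate arrays lay below all others, whereas permethrin and control overlapped. Fbp1 averaged 7235 ± 659.5 in clofibrate livers and 9571 ± 691 in control livers, which is 1.32-fold lower (log2 change -0.41 ± 0.09, 95% interval -0.61 to -0.20, limma adjusted p = 0.0259). The log2 change in permethrin livers was -0.11 ± 0.09 (limma adjusted p = 0.663), and it turned to 0.017 with quantile normalization and to 0.041 with scaling to the hybridization controls. The call in clofibrate livers ended in 11 of 23 alternative settings, where the log2 change was -0.07 with scaling to the hybridization controls, -0.13 with quantile normalization and -0.24 with cyclic loess. Among those 11 were the fits without control replicate 1 (adjusted p = 0.0519), control replicate 2 (0.0721), control replicate 3 (0.105) or clofibrate replicate 3 (0.0504). In the same livers all 7 tested hepatocyte markers had a lower mean than in control, with a median log2 change of -0.41. Of the 7, 4 fell (limma, adjusted p below 0.05), where 3.8% of all tested genes fell. Their summed signal was 54005 to 59371 in permethrin livers, 43818 to 51405 in clofibrate livers and 61595 to 66637 in control livers. Cela1, listed here as a pancreatic acinar marker, averaged 207 ± 69.2 in permethrin livers and 199.7 ± 18.7 in clofibrate livers, against 1295 ± 189 in control livers (log2 changes -2.66 ± 0.20 and -2.67 ± 0.20, limma adjusted p = 6.02e-05 and 3.71e-05). Cela2a and Prss2, also tested from that list, did not pass. Their log2 changes were -0.71 and -1.19 in permethrin livers (limma adjusted p = 0.501 and 0.191) and -1.40 and -0.16 in clofibrate livers (0.0814 and 0.874). Which cells gave the Cela1 signal was not tested. The summed signal of the 5 acinar markers annotated was 195 to 322 in permethrin livers, 228 to 263 in clofibrate livers and 1164 to 1468 in control livers, nearly all of it Cela1, and Cpa1 and Ctrb1 among them were below the filter on dim signals. None of the tested Kupffer cell, endothelial, stellate cell or cholangiocyte markers passed in either comparison with control (limma). At an unadjusted p below 0.05, 1 of 6 endothelial and 1 of 6 stellate cell markers were lower in permethrin livers, and 2 and 1 in clofibrate livers. Of all tested genes 8.9% and 12% were lower at that level. Whether the falls of Fbp1, G6pc, Slc37a4, Slc2a2 and Pklr share a cause with those of the hepatocyte markers or of Cela1 was not tested. In whole liver fewer hepatocytes and less RNA per hepatocyte cannot be told apart. The part of array scale in these falls was not tested either. On the log2 scale the added hybridization controls averaged 9.78 ± 0.12 on clofibrate arrays and 10.12 ± 0.16 on control arrays.

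Slc2a2, on chromosome 3 (28697903 to 28728361), had signals of 3064, 2696 and 2688 in permethrin livers and 1830.0, 3156 and 2127 in clofibrate livers, against 4353, 3798 and 3974 in control livers. All 6 treated arrays lay below the 3 control arrays. The mean of 2371 ± 696 in clofibrate livers, against 4041 ± 284 in control livers, was 1.75-fold lower (log2 change -0.81 ± 0.17, limma adjusted p = 0.0171). That call was lost in 6 of 23 settings. These were the fits without control replicate 1 (limma adjusted p = 0.0748), control replicate 3 (0.0549) or clofibrate replicate 3 (0.0762), median centring (0.119) and no intensity trend (0.0801). The last was scaling to the hybridization controls, where the log2 change was -0.47 (0.121). In permethrin livers the mean was 2816 ± 215, with a log2 change of -0.52 ± 0.17 that did not pass although the groups did not overlap, as for 13.2% of all tested genes in that direction (95% interval -0.89 to -0.15, limma adjusted p = 0.181). It passed with a fit of those 2 groups alone (adjusted p = 0.0253) and without clofibrate replicate 2 (0.0296), the array that was highest for Slc2a2 in its group.

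Gys2, on chromosome 6 (142422612 to 142473130), was the 1 gene of the 7 that rose. Its signal was 596, 619.7 and 674 in permethrin livers and 547, 581 and 688 in clofibrate livers, against 393, 466 and 380.4 in control livers. All 6 treated arrays lay above the 3 control arrays. The mean of 630.1 ± 40.1 in permethrin livers, against 413 ± 46.1 in control livers, was 1.53-fold higher (log2 change 0.61 ± 0.13, limma adjusted p = 0.0384). In clofibrate livers it averaged 605 ± 73.6, which is 1.46-fold higher than control (log2 change 0.55 ± 0.13, limma adjusted p = 0.0294). The direction held in all 23 alternative settings for both comparisons, with log2 changes of 0.55 to 0.76 in permethrin livers and 0.45 to 0.88 in clofibrate livers. The call, however, was lost in 10 settings for permethrin and in 6 for clofibrate. Those 10 included the fits without control replicate 1 or 3 or any one permethrin array (limma adjusted p = 0.069 to 0.152), and the 6 included those without control replicate 1 or 3 or clofibrate replicate 2 or 3 (0.0588 to 0.131).

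**Figure D2:**
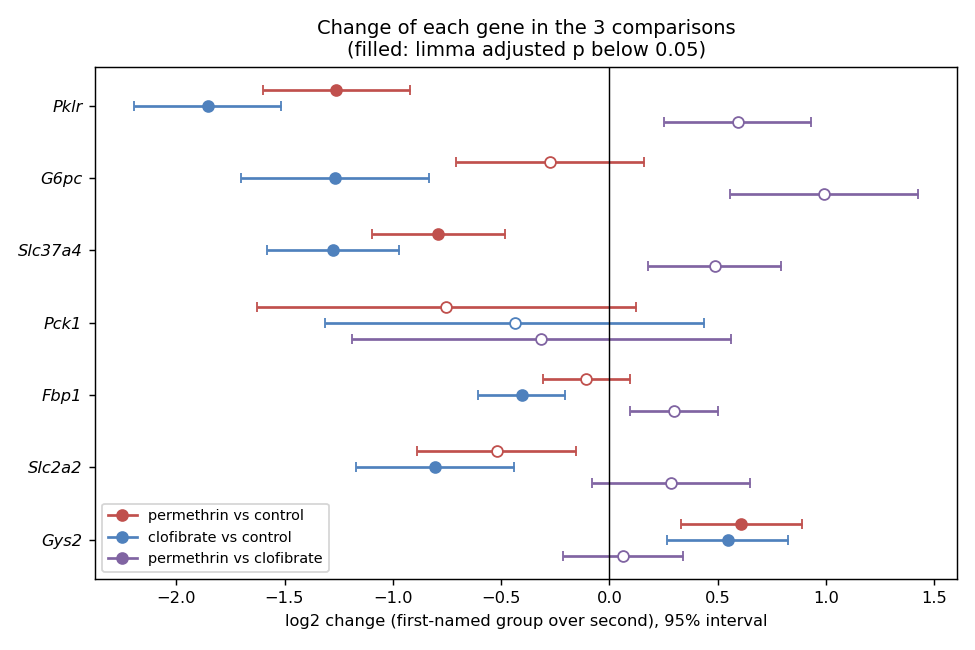
Log2 change of each of the 7 genes (horizontal axis) for permethrin over control, clofibrate over control and permethrin over clofibrate, with 95% intervals from limma; filled points have an adjusted p below 0.05. Pklr lies farthest below 0 in both comparisons with control, at -1.26 and -1.85, Gys2 lies above 0 in both, and no point of the direct comparison is filled.

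The hybridization controls are transcripts added at a set amount. Their log2 signals averaged 9.97 ± 0.18 on permethrin arrays, 9.78 ± 0.12 on clofibrate arrays and 10.12 ± 0.16 on control arrays (18 probe sets, SD over 3 arrays). Scaling to them moved the median change of all tested genes by 0.14 in permethrin livers and by 0.32 in clofibrate livers. Under it Pklr still fell, with log2 changes of -1.11 in permethrin livers and -1.52 in clofibrate livers, and G6pc and Slc37a4 still fell in clofibrate livers, with -0.93 and -0.94.

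**Figure D3:**
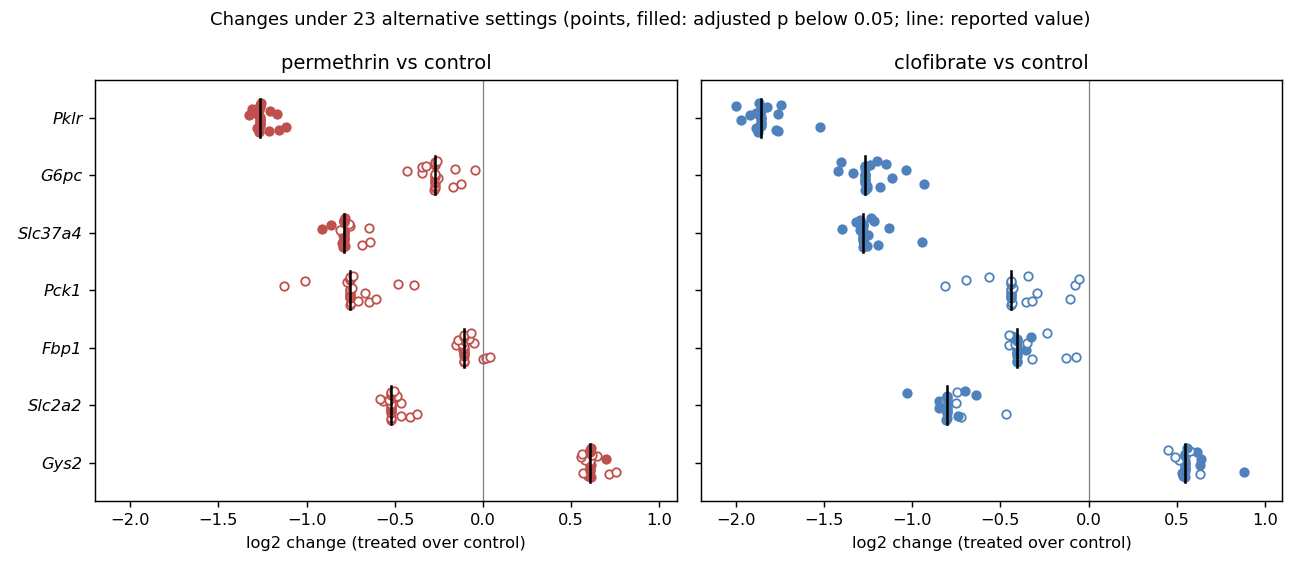
Log2 change of each of the 7 genes (horizontal axis) in permethrin against control and in clofibrate against control under 23 alternative settings (points, filled where the limma adjusted p was below 0.05) and as reported (black lines). Pklr stayed past the threshold in all 23 settings of both comparisons and G6pc and Slc37a4 in all 23 of the clofibrate comparison, whereas Fbp1 lay between -0.45 and -0.07 there.

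Permethrin and clofibrate were fed at the same dietary concentration, 5000 ppm, for the same time, which does not make the exposures equal. The 2 treated groups were also set against each other directly. None of the 7 genes passed the test between them (limma, 0 at adjusted p below 0.05), where 0.738% of all tested genes passed. At an unadjusted p below 0.05 there were 4 of the 7, where 13% of all tested genes were. G6pc came nearest, with 1716 ± 236 in permethrin livers and 865 ± 158 in clofibrate livers, a 1.99-fold difference (log2 0.99 ± 0.20, 95% interval 0.56 to 1.43, limma adjusted p = 0.0554). It passed in 5 of the 23 settings: with quantile normalization (adjusted p = 0.0467), with the stricter filter on dim signals (0.0449), with only those 2 groups in the fit (0.0474), with the replicate number as a block (0.033) and without control replicate 3 (0.026). Pklr was 1.51-fold higher in permethrin than in clofibrate livers (log2 0.59 ± 0.15, 95% interval 0.25 to 0.93, limma adjusted p = 0.137), and the 2 groups did not overlap. It passed in 1 setting, array weights (adjusted p = 0.0431), and the other 2 Pklr probe sets gave log2 differences of -0.06 and 0.09. Slc37a4 differed by 0.49 ± 0.14 on the log2 scale (95% interval 0.18 to 0.79, limma adjusted p = 0.175) and Fbp1 by 0.30 ± 0.09 (95% interval 0.10 to 0.50, adjusted p = 0.215). For these 4 genes all 3 permethrin arrays were above all 3 clofibrate arrays, as for 9.08% of all tested genes. The differences were 0.28 ± 0.17 for Slc2a2 (95% interval -0.08 to 0.65, limma adjusted p = 0.544), -0.32 ± 0.40 for Pck1 (-1.19 to 0.56, adjusted p = 0.808) and 0.06 ± 0.13 for Gys2 (-0.22 to 0.34, adjusted p = 0.89).

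The mice of one group did not deviate alike in all 7 genes. Control replicate 3 was the highest control array for G6pc, Slc37a4, Pck1 and Fbp1, and control replicate 2 was the lowest for G6pc, Slc37a4 and Pck1 but the highest for Pklr and Gys2. Clofibrate replicate 2 was the highest of its group for Pklr and Slc2a2 and the lowest for G6pc, Slc37a4 and Pck1. Across all 9 arrays, which include the group differences, the log2 signals of Pklr and Slc37a4 correlated at r = 0.915 and those of G6pc and Fbp1 at r = 0.913, while Gys2 ran against Slc37a4 at r = -0.835. Among the 12465 other tested genes, the 2 with the highest correlation over the 9 arrays were Pla1a (r = 0.987) and Igfals (0.977) for Pklr, Pdia5 (0.990) and Pelp1 (0.966) for G6pc, and Cfi (0.993) and Slc25a15 (0.982) for Slc37a4. For Slc2a2 they were Hpd (0.968) and Pon1 (0.967), and for Gys2 Pdhx (0.979) and Arfip1 (0.978). Fbp1 was closest to Tmem184c (0.966) and Krtap10-4 (0.960), and Pck1, with lower values, to 1700003E16Rik (0.935) and Lmx1b (0.934). These correlations share arrays and group differences and are descriptions.

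The other genes of these pathways were taken from 6 lists by role, which named 103 genes besides the 8, of which 87 were tested. These lists were also written with earlier results of these data known. In permethrin livers 1 of the 87 rose and 3 fell (4.6%, against 2.13% of all tested genes), with a median log2 change of -0.15. In clofibrate livers 3 rose and 6 fell (10.3%, against 7.03%), with a median of -0.06. Between permethrin and clofibrate 1 differed (1.15%, against 0.738%). Of the 20 glycolytic and fructose-using enzymes tested, Pklr included, 1 rose and 3 fell in each treated group. That is 20% in each, against 2.13% of all tested genes in permethrin livers and 7.03% in clofibrate livers. Those that fell besides Pklr act on fructose. Khk, which phosphorylates fructose, averaged 1796 ± 248 in permethrin livers and 1683 ± 96.5 in clofibrate livers, against 3120 ± 211 in control livers (log2 changes -0.80 ± 0.11 and -0.89 ± 0.11, limma adjusted p = 0.00533 and 0.00107). The Khk call in permethrin livers was lost with median centring (adjusted p = 0.0637), no intensity trend (0.0632) and scaling to the hybridization controls (0.123), and under the last the change in clofibrate livers was -0.55 (adjusted p = 0.0739). Tkfc, the triokinase that acts after the aldolase step of fructose breakdown, averaged 281 ± 36.5 in permethrin livers and 210.3 ± 19.4 in clofibrate livers, against 436 ± 3.34 in control livers (log2 changes -0.64 ± 0.13 and -1.05 ± 0.13, limma adjusted p = 0.0328 and 0.000765). The Tkfc call in permethrin livers was lost in 10 of 23 settings, among them the fits without any one control array, without permethrin replicate 1 or 2 and without clofibrate replicate 3 (adjusted p = 0.0564 to 0.117). Aldoa, the aldolase prominent in muscle, averaged 610 ± 48.2 in permethrin livers and 551 ± 30.6 in clofibrate livers, against 356 ± 20.9 in control livers (log2 changes 0.77 ± 0.11 and 0.62 ± 0.11, limma adjusted p = 0.00549 and 0.00719). Its 4 other probe sets also had changes above 0, of which 1 passed in permethrin livers and 2 in clofibrate livers.

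**Figure D4:**
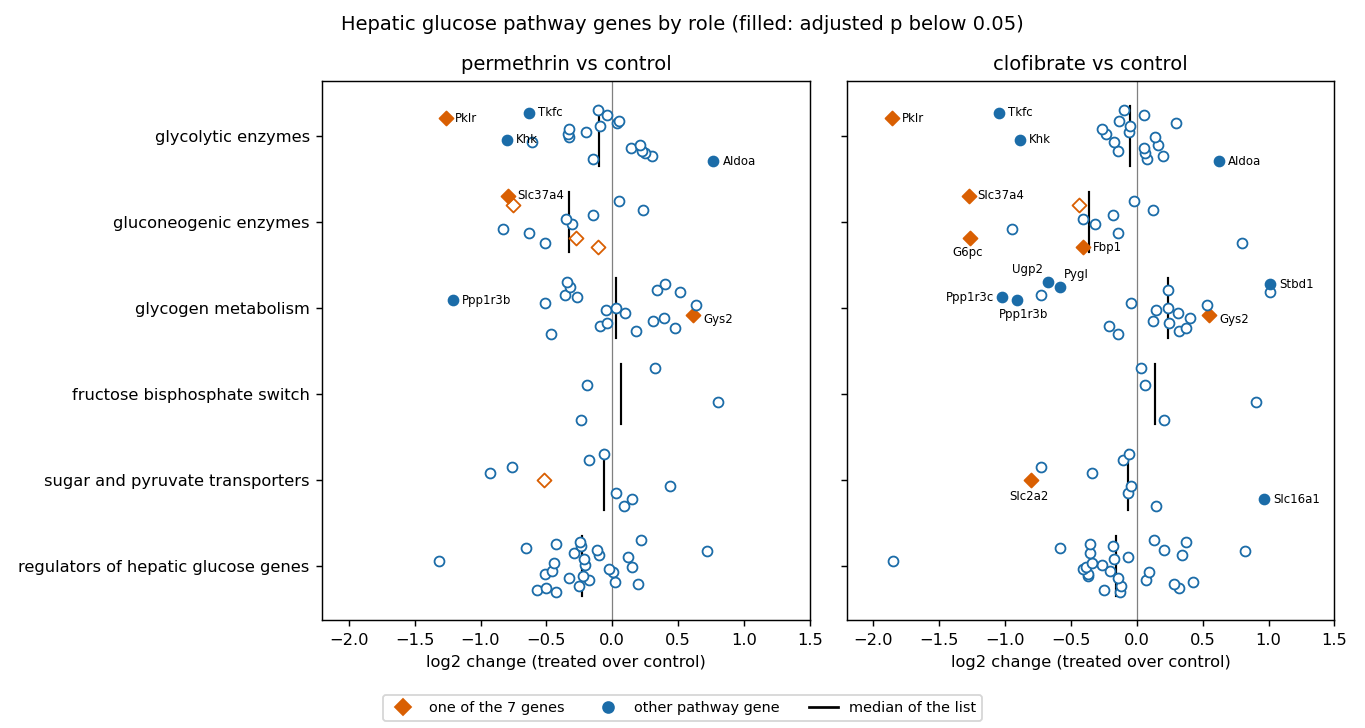
Log2 change (horizontal axis) of every tested gene of the 6 pathway lists in permethrin against control (left) and clofibrate against control (right), with diamonds for the 7 genes, circles for other genes, filled symbols for a limma adjusted p below 0.05 and black lines for list medians. List medians lie between -0.36 and 0.24, and the filled symbols below 0 include Pklr, Khk, Tkfc, Slc37a4 and Ppp1r3b on both sides.

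Among the 21 genes of glycogen metabolism tested, Gys2 rose and Ppp1r3b fell in permethrin livers, and 2 rose and 4 fell in clofibrate livers. These were 9.52% and 28.6% of the 21, against 2.13% and 7.03% of all tested genes. Ppp1r3b, a subunit that brings protein phosphatase 1 to glycogen in liver, averaged 606 ± 175 in permethrin livers and 731 ± 72.5 in clofibrate livers, against 1382 ± 252 in control livers (log2 changes -1.21 ± 0.19 and -0.91 ± 0.19, limma adjusted p = 0.00995 and 0.0192). Without control replicate 1 it passed in neither (adjusted p = 0.0548 and 0.085), and in clofibrate livers it also missed without control replicate 3 (0.0559) or clofibrate replicate 3 (0.0847). With no intensity trend it passed in neither (0.0698 and 0.0777), and in clofibrate livers it also missed with median centring (0.0617) and with scaling to the hybridization controls, where the change was -0.57 (0.101). Ppp1r3c, another such subunit, fell to 1015 ± 73.5 in clofibrate livers, against 2071 ± 230.4 in control livers (log2 change -1.02 ± 0.14, limma adjusted p = 0.00193), and a second probe set gave -0.44 (adjusted p = 0.385). It was also the 1 pathway gene that differed between the treated groups, at 1736 ± 348 in permethrin livers and 1015 ± 73.5 in clofibrate livers (log2 0.76 ± 0.14, limma adjusted p = 0.0468), a call lost in 16 of 23 settings, including each fit with 1 array left out except that without permethrin replicate 1. Stbd1, a glycogen-binding protein, averaged 662 ± 224 in clofibrate livers and 315 ± 24.1 in control livers (log2 change 1.01 ± 0.25, limma adjusted p = 0.0376), and this call was lost in 8 of 23 settings, among them the fits without any one control array, permethrin replicate 1 or clofibrate replicate 1 or 3 (adjusted p = 0.052 to 0.117). Ugp2, which makes the UDP-glucose that glycogen synthase uses, fell to 1692 ± 148 in clofibrate livers, against 2693 ± 123 in control livers (log2 change -0.67 ± 0.14, limma adjusted p = 0.0161). That call was lost in 6 of 23 settings, among them the fits without control replicate 1 or 3 or clofibrate replicate 3 (adjusted p = 0.0597 to 0.0767) and scaling to the hybridization controls, where the change was -0.34 (0.164). Of the 4 other Ugp2 probe sets, 2 passed, with log2 changes of -0.61 and -0.70, and 2 did not, with -0.39 (adjusted p = 0.24) and -0.55 (adjusted p = 0.131). Pygl, the liver glycogen phosphorylase, chosen here after its values were seen, averaged 2338 ± 445 in clofibrate livers and 3456 ± 132 in control livers (log2 change -0.58 ± 0.12, limma adjusted p = 0.0199).

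Of the 12 gluconeogenic genes tested, those that passed were the ones already described, Slc37a4 in permethrin livers and Slc37a4, G6pc and Fbp1 in clofibrate livers. They made up 8.33% and 25% of the 12, against 2.13% and 7.03% of all tested genes. Among the 9 sugar and pyruvate transporters, Slc16a1, which carries lactate and pyruvate, averaged 2084 ± 296 in clofibrate livers and 1063 ± 136 in control livers (log2 change 0.97 ± 0.20, limma adjusted p = 0.0184). That call was lost without control replicate 1 (limma adjusted p = 0.0828) or clofibrate replicate 3 (0.0837) and with no intensity trend (0.0779). None of the 4 tested genes of the fructose bisphosphate switch passed in limma, and 0 had an unadjusted p below 0.05 in either comparison with control. Pfkfb1 was not among these 4. Their group mean signals were low, from 13.5 (Pfkfb3, control) to 58.8 (Tigar, permethrin). Their log2 changes ran from -0.24 to 0.80 in permethrin livers and from 0.03 to 0.91 in clofibrate livers. The standard errors were 0.19 (Tigar) to 0.51 (Pfkfb3), so these tests cannot show that the switch was unchanged. None of the 28 regulators of hepatic glucose genes passed in limma either, while at an unadjusted p below 0.05 there were 8 lower in permethrin livers (8.9% of all tested genes), and 2 higher (9.03% of all tested genes) and 5 lower (12%) in clofibrate livers. The log2 changes of the 28 ran from -1.32 to 0.72 in permethrin livers and from -1.85 to 0.82 in clofibrate livers. Mlxipl encodes the carbohydrate response factor known to act on the Pklr promoter. Its part in the fall of Pklr was not tested, and it was chosen here after its values were seen. It averaged 643 ± 27.5 in permethrin livers and 882 ± 128 in clofibrate livers, against 695 ± 107 in control livers (log2 changes -0.10 ± 0.14 and 0.34 ± 0.14, limma adjusted p = 0.806 and 0.199).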

How the data were processed

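Liver RNA of 9 mice was measured on 1 Affymetrix array each. Per the submitters' processing notes the deposited values are MAS5 signals, and the authors deposited them as linear intensity, 1 per probe set and array. Version and settings are not stated in what was used here. With 2% of probe sets trimmed from each end, the mean was 100.001 on each array, which shows scaling before deposit. Of 45101 probe sets, 34945 carried 1 gene symbol, 932 several and 9160 were unnamed here, and 64 were controls.

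Log2 was taken of the signal plus 3.35, its 20th percentile. Probe sets with a signal above 15.6 (the median) in at least 3 arrays were tested, 24546 in all. limma 3.58.1 in R 4.3.3, with data.table (version 1.17.8), fitted all 9 arrays together, with a variance trend on signal. Two-sided p-values received Benjamini-Hochberg adjustment over the 24546 probe sets, with a threshold of 0.05. Each of 12466 tested genes was represented by 1 probe set, the brightest on average. The number of arrays limits the precision. The procedure was run on simulated data with independent normal noise for each probe set and array. Shifts of array scale were not simulated, so that run cannot show how such shifts affect the calls given here.

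The members and gene lists were chosen with earlier results of these data known. Of each pathway list, up to 4 genes past the threshold with the largest change were named, with the 2 closest genes by correlation for each member. Alternatives numbered 23, among them offsets, normalizations, filters, variance models and leaving out each array. Cyclic loess was chosen after seeing the data. Same-numbered arrays deviated with correlations of -0.109 to 0.113, and replicate numbers were not used as pairs in the reported fit. Arrays of different numbers were not compared in this way, so these values cannot show whether same-numbered mice shared a batch. Each replicate is labelled as a separate biological one, and batches are not stated in what was used here. Promoter sequences are RefSeq's.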

Additional observations from a re-analysis of the deposited data

How the results depend on the processing

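Among the 7 genes, Pklr in both treated groups and G6pc and Slc37a4 in clofibrate livers stayed past the threshold in the 23 settings. With 3 mice a group, a change within the Pck1 intervals could not be told from none. In this section pathway genes are counted over all 94 tested genes of the 6 lists, the 7 genes included. As reported, 2 of the 94 rose and 5 fell in permethrin livers, and 4 rose and 11 fell in clofibrate livers. Between the treated groups 1 of the 94 was higher in permethrin livers and 0 were lower. Median centring left 1 gene of the 7 past the threshold in permethrin livers and 3 in clofibrate livers, with 3 and 9 pathway genes and 143 and 487 of all genes, and 33 of all genes and 0 pathway genes between the treated groups. No intensity trend left 1 and 3 of the 7, 2 and 7 pathway genes and 80 and 397 of all genes, and between the treated groups 10 of all and 0 pathway genes. Scaling to the hybridization controls left 1 of the 7, 3 pathway genes and 166 of all genes in permethrin livers, and 43 of all and 0 pathway genes between the treated groups. Array weights gave 1496 of all genes in clofibrate livers, and 226 of all, 2 pathway genes and 1 of the 7 between the treated groups. There the stricter filter gave 2 pathway genes and 1 of the 7, no filter and cyclic loess gave 0 pathway genes, quantile normalization gave 1 of the 7, and a fit of those groups alone gave 1 of the 7 and 48 of all genes. For these changed counts the cause was not tested.

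The share of higher among all called genes moved too: 117 higher and 26 lower in permethrin livers and 305 and 182 in clofibrate livers with median centring, 144 and 22, and 1015 and 88, with the hybridization controls, against 160 and 106, and 402 and 474, as reported. Between the treated groups the split was 26 higher and 7 lower with median centring, 9 and 34 with the hybridization controls and 9 and 1 with no intensity trend, against 59 and 33. No intensity trend gave 62 and 18 in permethrin livers.

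Leaving out 1 array gave 1 to 4 of the 7 genes in permethrin livers, 3 to 6 in clofibrate livers and 0 to 1 between the treated groups. For pathway genes it gave 3 to 9, 7 to 15 and 0 to 1, and for all genes 108 to 323, 429 to 901 and 17 to 118. The replicate number as a block, though no pairing of mice is stated, gave 2 of the 7 in permethrin livers, where Gys2 missed (limma adjusted p = 0.0683). It gave 6 in clofibrate livers and 1 between the treated groups, which was G6pc. Of all genes it gave 205, 726 and 63 in the same order. Directions turned for Fbp1 in permethrin livers (0.017 with quantile normalization, 0.041 with the hybridization controls), for Gys2 between permethrin and clofibrate (-0.12 with the hybridization controls, -0.022 with array weights, and -0.0061 without clofibrate replicate 1 in a range up to 0.16 over the single arrays left out) and for the second Pklr probe set between permethrin and clofibrate (-0.058), none of them called.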
